A study of Mus musculus with 6 samples.

Results

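The genes of sterol and fatty acid synthesis were examined in RAW264.7 cells, a mouse line with macrophage traits, grown on acoustic devices. The 31 members were chosen by symbol from knowledge of the pathway, with earlier results of these data known. They are genes of the synthesis controlled by the sterol regulatory element binding proteins (SREBPs), and genes of that control. All 31 symbols were found among the 16108 genes of the deposited table, and all 31 passed the filter on low values that left 11664 genes for testing. The unit was FPKM, fragments scaled to transcript length and to library size, so levels can be set side by side between genes. Cells of the acoustics-off group (the off group) sat on the same kind of device for 48 h with no drive, and cells of the acoustics-on group (the on group) were driven for 48 h at 18 V peak to peak and 5 kHz. Both groups used cells of the third passage, with no genetic change named, and each group had 3 libraries. A petri dish control group named in the labels was not analysed here. Whether the libraries stem from separate experiments is not given, so the p-values cover only how far these libraries vary, and that variation may be technical.

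SREBPs are transcription factors that are made as membrane proteins of the endoplasmic reticulum. When sterols are scarce, the escort protein SCAP carries them to the Golgi, where proteases release the active part. When sterols are plentiful, INSIG proteins hold SCAP back. SREBP2 acts mainly on cholesterol synthesis and SREBP1 mainly on fatty acid synthesis, and in macrophages both pathways are tied to membrane supply and to inflammatory signalling.

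All 10 macrophage markers examined passed the filter, and their summed level was 27900 to 30100 FPKM in the off group and 19300 to 26700 in the on group. Most of that sum was Lyz2, with 23950 to 26100 FPKM in the off group and 16360 to 23210 in the on group. The ratio of means (on over off) was 1.05 for Spi1 and 1.01 for Aif1, and from 0.57 (Csf1r) to 0.84 (Ptprc) for the rest. None of these 10 markers passed the test, although Csf1r, the receptor for the macrophage growth factor, was lower with acoustics on in the authors' deposited table (log2 fold change -0.82, adjusted p = 0.0044 there). Fibroblast markers summed to at most 3.08 FPKM in any library, and the epithelial, endothelial and lymphocyte markers present in the table stayed at or below 0.119 FPKM each. The part of the lower summed macrophage marker level in the results was not tested. The authors' deposited mean normalised counts gave the members mean counts from 465.5 (Tm7sf2) to 39355 (Scd2). At the lowest of these, counting error by itself gives an SD of 4.6% of the mean. Acoustics-on replicate 1 stood apart from the other libraries. It was the highest of the 3 acoustics-on libraries for 11 of the 31 members and the lowest for 19. Over all 11664 genes tested it was the highest for 4664 and the lowest for 5211. The values that moved most without that library are given both ways. In these bulk samples, fewer cells of a type and less RNA per cell cannot be told apart.

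The design asks which transcripts differ when the devices are driven. With acoustics on, 1 of 31 members rose and 0 fell (adjusted p under 0.05 by limma with Benjamini-Hochberg adjustment over all genes tested), beside 1.50% of all genes tested that rose and 0.574% that fell. The riser was Acat2. At an unadjusted p under 0.05, 5 members were higher and 1 was lower, beside 10.5% and 9.16% of all genes tested. The log2 differences ran from -0.79 (Acaca) to 0.89 (Fdps), with a median of 0.05 against -0.03 over all genes tested. The member sterol enzymes and the member fatty acid enzymes lay mostly on opposite sides of 0. Of the 18 enzymes from acetoacetyl-CoA to cholesterol, 17 had a log2 difference above 0 (median 0.30), beside 47.0% of all genes tested with one above 0, while all 7 fatty acid enzymes had one below 0 (median -0.18). The difference between these arms was not tested, and after a correction for transcript length and GC content 4 of the 7 fatty acid enzymes lay above 0. The lists of other genes did not show that split, but they also hold genes outside these arms, such as Soat1 (cholesterol storage) and Pcyt2 (phosphatidylethanolamine synthesis). Among 17 other sterol and isoprenoid genes tested, 7 lay above 0 (median -0.07). Among 20 other fatty acid genes tested, 13 lay above 0 (median 0.12). Without acoustics-on replicate 1, 5 members rose and 0 fell, beside 4.34% and 3.11% of all genes tested. With libraries weighted by their estimated precision, 6 rose and 2 fell, beside 9.41% and 6.72%. Those that rose were Acat2, Fdps, Fdft1, Sqle, Cyp51 and Nsdhl. Those that fell were Srebf2 and Acaca (limma adjusted p = 0.044 and 0.023 with weights).

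**Figure D1:**
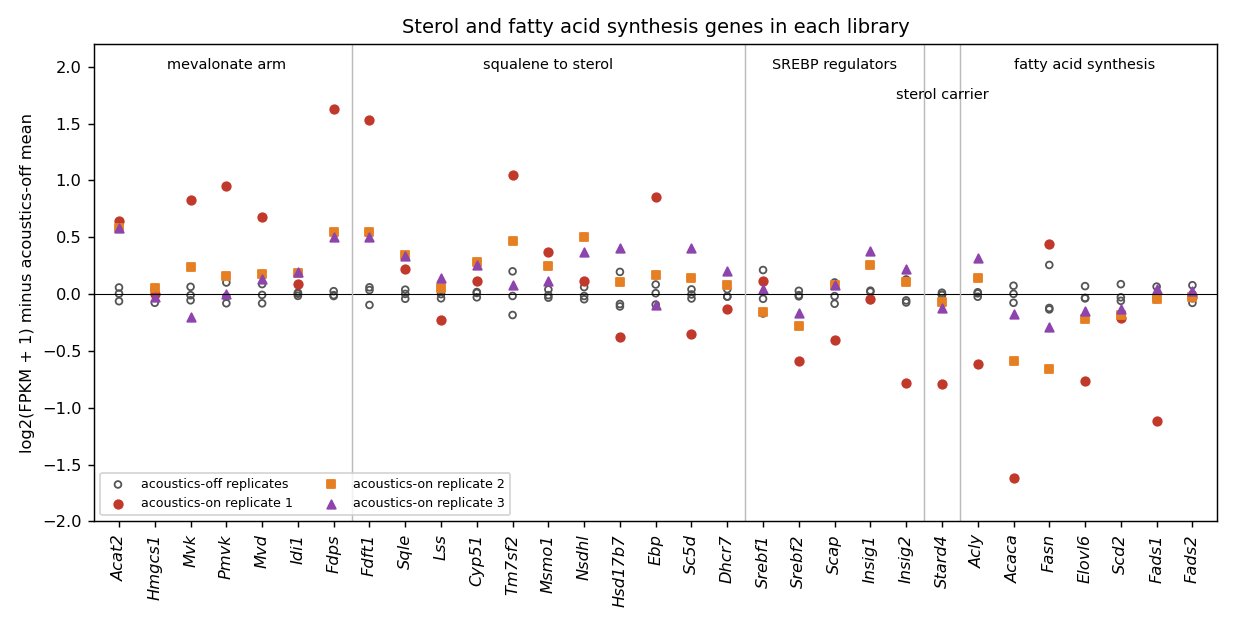
Each member's log2(FPKM + 1) in each library, as the difference from the mean of the 3 acoustics-off libraries (open circles), with the 3 acoustics-on libraries as coloured symbols and genes grouped by role. Acoustics-on replicate 1 (red) lies far above the others for Fdps and Fdft1 and far below for Acaca and Fads1, while the 3 acoustics-on libraries lie close together for Acat2 (0.58 to 0.64).

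The groups did not overlap for 14 members. In 9 of them (29.0%) every acoustics-on library was above every acoustics-off library, beside 17.1% of all genes tested, and in 5 (16.1%) every acoustics-on library was below, beside 17.7%. All 9 that lay above were sterol enzymes, namely Acat2, Mvd, Idi1, Fdps, Fdft1, Sqle, Cyp51, Msmo1 and Nsdhl. The 5 that lay below were Srebf2, Stard4, Acaca, Elovl6 and Scd2.

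The mevalonate arm builds isoprenoid units from acetyl-CoA, and its 7 members had log2 differences between 0.01 and 0.89. Acat2 (chromosome 17, 12942890 to 12960747, GRCm38), the cytosolic thiolase that makes acetoacetyl-CoA, had 23.8, 24.8 and 22.7 FPKM in the off group and 37.7, 36.0 and 36.1 FPKM in the on group. The groups were far apart and the spread within each was small. The means were 23.8 ± 1.03 and 36.6 ± 0.92 FPKM (SD, n = 3), a ratio of 1.54, with a log2 difference of 0.60 (SE 0.11, limma adjusted p = 0.043). Acat2 passed without acoustics-on replicate 1 (adjusted p = 0.011), but with any other library left out its adjusted p was between 0.060 and 0.28, at log2 differences from 0.57 to 0.63. It did not pass with the filter removed either (adjusted p = 0.060). In the authors' deposited table Acat2 had a log2 fold change of 0.62 (adjusted p = 7.2e-05 there). The near-identical copy Acat3 was listed at 0.049 to 0.18 FPKM, and reads shared with it leave the split between them uncertain. Log2 differences were taken on log2(FPKM + 1), so those of weakly expressed genes are understated.

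Fdps, the synthase that makes farnesyl diphosphate, had the highest level of the 18 member sterol enzymes, with 199.8, 204.7 and 198.7 FPKM in the off group and 624.4, 293.5 and 285.7 FPKM in the on group. Every acoustics-on library was higher, and replicate 1 was far above replicates 2 and 3. The log2 difference was 0.89 (SE 0.30, limma adjusted p = 0.19), and 0.52 without acoustics-on replicate 1 (adjusted p = 0.017). In the authors' deposited table it passed with all libraries (log2 fold change 1.00, adjusted p = 0.031 there). The annotation places 1124 of the 4208 exon bases of Fdps inside a second gene model, Gm43738, on the same strand.

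Mvd, the decarboxylase that yields isopentenyl diphosphate, had 84.7, 90.6 and 80.4 FPKM in the off group and 136.6, 96.3 and 93.3 FPKM in the on group (log2 difference 0.33, SE 0.17, limma adjusted p = 0.32), and a log2 difference of 0.15 without acoustics-on replicate 1. Idi1, the isomerase that acts next, had 43.5, 42.9 and 43.7 FPKM and 46.3, 49.3 and 49.7 FPKM (log2 difference 0.16, SE 0.11, adjusted p = 0.42). For both genes the groups did not overlap, and the gap between them was small. The kinases Mvk and Pmvk overlapped between groups, although acoustics-on replicate 1 had 30.5 FPKM of Mvk against 14.4 to 19.9 in every other library, and 81.8 FPKM of Pmvk against 39.4 to 46.6. Their log2 differences were 0.29 and 0.37 (adjusted p = 0.50 and 0.41), and 0.02 and 0.08 without that library. Hmgcs1, the HMG-CoA synthase that feeds the arm, had 32.7 to 35.6 FPKM in the off group and 33.9 to 36.0 in the on group. Its log2 difference was 0.01 (95% interval -0.24 to 0.26), so a change of the size seen in Acat2 lay outside the interval.

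Promoters are printed for 4 sterol genes chosen after their values were seen, to set 3 members whose on group lay above the off group (Acat2, Cyp51, Nsdhl) beside a textbook SREBP target with a log2 difference near 0 (Hmgcs1). They come from RefSeq (GRCm38.p6), which matched 25 of the 31 members with 33 promoters (not Fdps, Fdft1, Sqle, Stard4, Scd2 or Fads1), and run from 250 bases before to 50 after each start, 5′ to 3′ on the gene's strand. Acat2 is at chr17:12960676-12960975 (minus strand), Cyp51 at chr5:4104648-4104947 (minus), Nsdhl at chrX:72918271-72918570 (plus) and Hmgcs1 at chr13:119690101-119690400 (plus). Capitals mark matches, on either strand, to TCACNCCAC, the core of the sterol regulatory element, and to CCAAT, the NF-Y box, whose reverse complement reads ATTGG.
Acat2: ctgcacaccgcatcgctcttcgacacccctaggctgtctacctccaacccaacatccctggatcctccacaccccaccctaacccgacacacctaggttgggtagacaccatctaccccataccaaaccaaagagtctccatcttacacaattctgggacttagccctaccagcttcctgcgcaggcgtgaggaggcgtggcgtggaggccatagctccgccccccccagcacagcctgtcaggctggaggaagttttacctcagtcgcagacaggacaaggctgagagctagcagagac
Cyp51: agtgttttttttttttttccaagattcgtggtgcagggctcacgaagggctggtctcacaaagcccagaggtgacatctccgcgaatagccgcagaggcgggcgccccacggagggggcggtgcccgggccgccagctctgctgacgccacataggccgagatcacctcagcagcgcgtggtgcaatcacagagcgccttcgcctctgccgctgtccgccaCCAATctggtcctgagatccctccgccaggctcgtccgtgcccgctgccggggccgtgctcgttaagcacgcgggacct
Nsdhl: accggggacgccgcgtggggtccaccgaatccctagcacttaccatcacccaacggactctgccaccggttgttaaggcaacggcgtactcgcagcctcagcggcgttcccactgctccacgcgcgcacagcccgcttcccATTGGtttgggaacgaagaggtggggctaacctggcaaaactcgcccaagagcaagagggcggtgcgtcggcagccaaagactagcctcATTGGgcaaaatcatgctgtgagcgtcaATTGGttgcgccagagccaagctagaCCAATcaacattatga
Hmgcs1: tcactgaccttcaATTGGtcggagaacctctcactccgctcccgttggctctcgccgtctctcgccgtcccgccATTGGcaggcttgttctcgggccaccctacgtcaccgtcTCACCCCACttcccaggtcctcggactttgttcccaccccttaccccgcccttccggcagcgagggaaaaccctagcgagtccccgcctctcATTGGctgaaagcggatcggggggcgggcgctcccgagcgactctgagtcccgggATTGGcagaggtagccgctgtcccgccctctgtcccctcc
Positions are counted from the start site, whose first transcribed base is 1. The Hmgcs1 promoter holds 1 TCACNCCAC match, at position -137, and 4 CCAAT matches. Nsdhl holds 4 CCAAT matches, Cyp51 holds 1 and Acat2 holds none. All 4 promoters hold the GC box GGGCGG, which is not capitalised.

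Over the 25 members with a promoter, 20 (80.0%) held CCAAT on either strand, against 42.9% of the 11149 genes of the table that had a RefSeq promoter and 37.4% of all 32851 promoters. GGGCGG was held by 21 members (84.0%), against 66.1% and 35.7%. CACGTG, the E-box, was held by 5 members (20.0%), against 11.3% and 7.2%. TCACNCCAC was held by 1 member, Hmgcs1 (4.0%), against 1.4% and 1.2%, and that match overlapped no other motif searched. A gene counted as holding a motif if any of its promoters did, and 5 members had more than 1 promoter. No match says only that these letters are not in this window.

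From farnesyl diphosphate onward, 10 of the 11 enzymes had log2 differences above 0 and 0 passed the test over all genes. Fdft1 (chromosome 14, 63145150 to 63179578), the squalene synthase that commits the pathway to sterols, had 13.1, 14.7 and 14.4 FPKM in the off group and 42.4, 20.9 and 20.3 FPKM in the on group. All 3 acoustics-on libraries were above all acoustics-off libraries, and replicate 1 had about the summed level of the other 2. The log2 difference was 0.86 (SE 0.28, limma adjusted p = 0.17), and 0.53 without acoustics-on replicate 1 (adjusted p = 0.022). The authors' deposited table gave 0.99 for Fdft1 (adjusted p = 0.026 there). Fdft1 shares 774 of its 4227 exon bases with the cathepsin gene Ctsb on the opposite strand, and the sources used here do not state whether the counting used strand. Ctsb had 1450 to 1719 FPKM in all 6 libraries and a log2 difference of -0.06 (adjusted p = 0.84), and acoustics-on replicate 1 read 1535 FPKM.

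Sqle, the squalene epoxidase that limits flux late in the pathway, had 47.5, 48.7 and 46.0 FPKM in the off group and 55.5, 60.3 and 60.2 FPKM in the on group (log2 difference 0.30, SE 0.11, limma adjusted p = 0.21). Nsdhl, a dehydrogenase that helps remove methyl groups from the sterol ring, had 25.2, 26.6 and 24.7 FPKM and 27.8, 36.5 and 33.2 FPKM (log2 difference 0.33, SE 0.13, adjusted p = 0.24). In both genes acoustics-on replicate 1 was the lowest of its group, closest to the acoustics-off libraries, unlike in Fdps and Fdft1. Without that library both passed, Sqle at 0.34 (adjusted p = 0.039) and Nsdhl at 0.43 (adjusted p = 0.030). Cyp51, the lanosterol demethylase, had 32.6, 32.8 and 31.7 FPKM in the off group and 35.1, 39.6 and 38.8 in the on group (adjusted p = 0.31). Msmo1, the methylsterol monooxygenase, had 79.5, 82.4 and 78.3 FPKM and 103.8, 95.2 and 86.7 FPKM (adjusted p = 0.31). Their groups did not overlap, with log2 differences of 0.22 and 0.24.

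**Figure D2:**
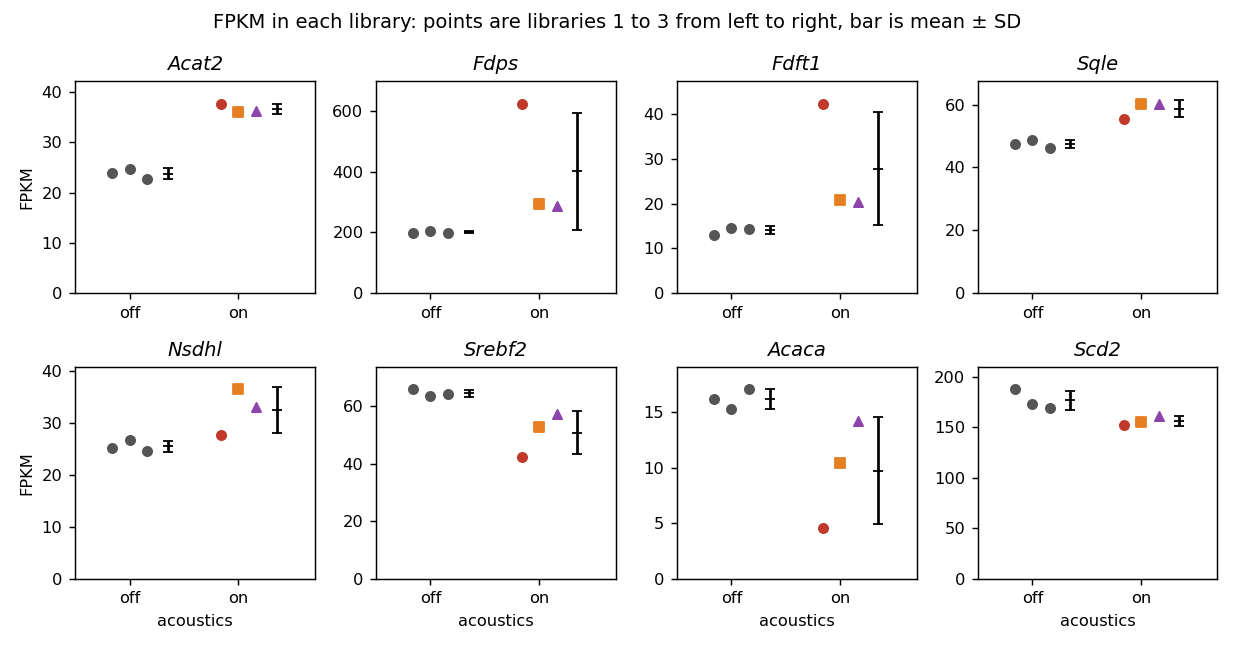
FPKM in each library for 8 members, with acoustics-off libraries in grey, acoustics-on libraries in colour (replicates 1 to 3 from left to right) and the mean ± SD of 3 libraries as a bar. The acoustics-on points of Acat2 lie together at 36.0 to 37.7 FPKM, whereas Fdps, Fdft1 and Acaca have replicate 1 apart from the other acoustics-on libraries.

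The other 6 late sterol enzymes overlapped between groups. Tm7sf2, a sterol reductase, averaged 7.23 ± 1.11 and 11.3 ± 4.23 FPKM (log2 difference 0.53, limma adjusted p = 0.29), and Ebp, a sterol isomerase, averaged 13.8 ± 0.90 and 18.0 ± 6.80 FPKM (log2 difference 0.31, adjusted p = 0.47). Both were highest in acoustics-on replicate 1, and without it the log2 differences were 0.27 and 0.04. Tm7sf2 shares 532 of its 4403 exon bases with Vps51 on the same strand, and Vps51 was also highest there (54.3 FPKM against 24.4 to 33.5). Lss, the lanosterol synthase, Hsd17b7, a ketosteroid reductase, Sc5d, a sterol desaturase, and Dhcr7, which catalyses a final reduction to cholesterol, had log2 differences from -0.01 to 0.07, and from 0.10 to 0.27 without acoustics-on replicate 1. In these 4 genes acoustics-on replicate 1 was the lowest of all 6 libraries and replicate 3 the highest. Sc5d, for example, had 20.6, 29.4 and 35.4 FPKM in the on group and 25.8 to 27.3 in the off group.

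Among the regulators 0 of 5 passed with all libraries and no weights, and their log2 differences ran from -0.35 to 0.20. Srebf2, which encodes SREBP2, had 65.8, 63.6 and 64.0 FPKM in the off group and 42.4, 52.8 and 57.2 FPKM in the on group. Every acoustics-on library was below every acoustics-off library, by little in replicate 3 (log2 difference -0.35, SE 0.14, limma adjusted p = 0.24, and -0.23 without replicate 1). Srebf1, which encodes SREBP1, had 29.9 to 39.2 FPKM in the off group and 30.2 to 36.7 in the on group (log2 difference 0.00, 95% interval -0.34 to 0.35). Scap had 13.5 to 15.5 and 10.6 to 15.3 FPKM (log2 difference -0.08, adjusted p = 0.78, and 0.08 without acoustics-on replicate 1). Insig1, itself a target that reports SREBP activity, had 60.0, 60.3 and 56.9 FPKM in the off group and 57.4, 70.6 and 77.4 FPKM in the on group. Replicates 2 and 3 of the acoustics-on group were above all acoustics-off libraries and replicate 1 was among them (log2 difference 0.20, adjusted p = 0.44, and 0.32 without replicate 1). Insig2 had 13.8, 26.5 and 28.6 FPKM in the on group against 23.2 to 26.8 in the off group, with replicate 1 far below that range, replicate 2 within it and replicate 3 above it (log2 difference -0.15, and 0.16 without replicate 1). Stard4, which carries cholesterol between membranes, had 23.9, 23.5 and 23.5 FPKM and 13.3, 22.5 and 21.6 FPKM (log2 difference -0.33, SE 0.20, adjusted p = 0.38). Without acoustics-on replicate 1 the Stard4 difference was -0.10.

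Of the 7 fatty acid enzymes, 0 passed with all libraries and no weights. Acaca (chromosome 11, 84129672 to 84401651), the acetyl-CoA carboxylase that commits carbon to fatty acids, had 16.2, 15.3 and 17.1 FPKM in the off group and 4.61, 10.4 and 14.2 FPKM in the on group. All acoustics-on libraries were below the acoustics-off libraries, over a wide range (log2 difference -0.79, SE 0.34, limma adjusted p = 0.26). It was -0.38 without acoustics-on replicate 1. The elongase gene Elovl6 had 5.87, 5.39 and 5.38 FPKM and 2.86, 4.63 and 4.92 FPKM (log2 difference -0.37, adjusted p = 0.31, and -0.18 without acoustics-on replicate 1). Scd2, a stearoyl-CoA desaturase and the member with the highest mean count, had 187.5, 173.0 and 169.3 FPKM in the off group and 152.3, 154.9 and 161.3 in the on group (log2 difference -0.18, SE 0.12, adjusted p = 0.42). Its acoustics-on libraries agreed closely and lay just below the acoustics-off range.

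Acly, the ATP citrate lyase that supplies cytosolic acetyl-CoA, averaged 135.9 ± 1.92 and 136.1 ± 42.5 FPKM, with 88.4, 149.7 and 170.2 FPKM in the acoustics-on libraries (log2 difference -0.05, and 0.23 without replicate 1). Replicate 1 lay below and the others above all acoustics-off libraries. Fasn, the fatty acid synthase, ran the other way, with 58.8, 26.9 and 35.0 FPKM in the on group and 39.1 to 51.6 in the off group (log2 difference -0.17, limma adjusted p = 0.72, and -0.47 without replicate 1). The desaturases Fads1 and Fads2, which make polyunsaturated fatty acids, differed in replicate 1. It had 53.9 FPKM of Fads1 against 114.1 to 123.4 in all other libraries, but 50.8 FPKM of Fads2 against 49.2 to 54.9. The log2 difference of Fads1 was -0.37 (adjusted p = 0.48), and 0.00 without that library. That of Fads2 was -0.01 (95% interval -0.27 to 0.25).

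The members varied little among the acoustics-off libraries and much more among the acoustics-on libraries. The median coefficient of variation over members was 4.42% with acoustics off and 22.2% with acoustics on, against 6.07% and 23.5% over all genes tested. Between acoustics-on replicates 2 and 3 alone it was 5.52% over members, against 11.8% over all genes tested. The members had mean counts of 465.5 or more, whereas the filter let in genes from 0.5 FPKM. The part of expression level in these gaps was not tested. By role, the median of the 18 sterol enzymes stood 0.30, 0.21 and 0.20 above the off group's mean in replicates 1, 2 and 3 of the on group. For the 7 fatty acid enzymes it was -0.61, -0.19 and -0.13. The sterol enzymes above the acoustics-off mean numbered 13, 18 and 15 of 18 in replicates 1, 2 and 3, and the fatty acid enzymes 1, 1 and 3 of 7.

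Transcript length moved with these differences. Across the 31 members the rank correlation of the difference from the acoustics-off mean with the length of the longest transcript reached -0.68 and -0.74 for replicates 1 and 2 of the on group, and -0.31 for replicate 3. These are descriptions across genes of 1 library each, and members share the pathway. The 14 members with a transcript shorter than 3054 bases, the median of tested protein-coding genes, had a median of 0.51, 0.24 and 0.20 in the 3 acoustics-on libraries, and the 17 longer members had -0.35, -0.03 and 0.04. The sterol enzymes include the shortest members, such as Pmvk (1194 bases) and Fdps (1382 bases), and the fatty acid enzymes the longest, Acaca (9513 bases) and Fasn (10050 bases). Fdft1 (3698 bases) and Fasn, both longer than that median, were high in replicate 1.

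**Figure D3:**
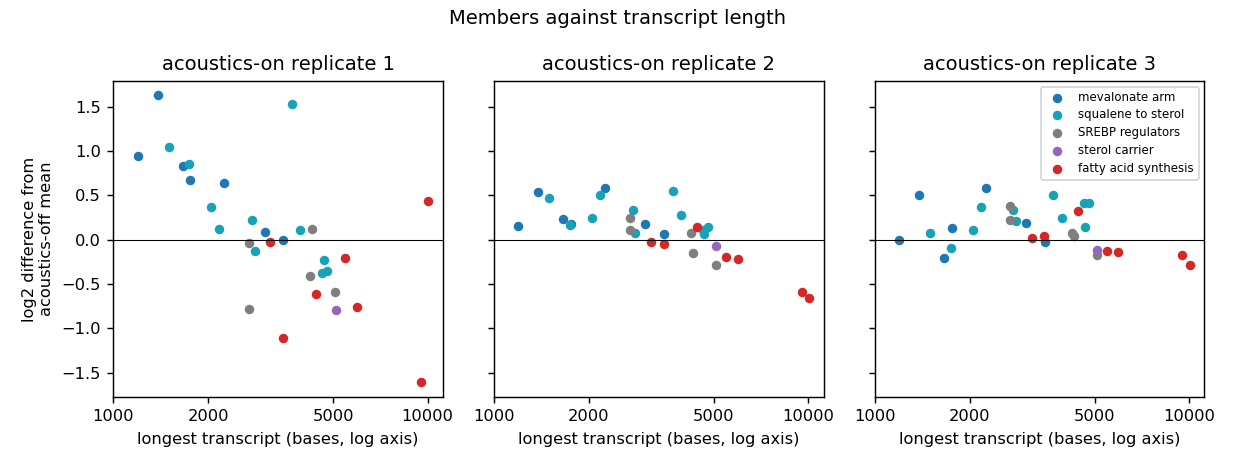
The difference of each member from the acoustics-off mean (log2(FPKM + 1) scale) against the length of its longest transcript on a log axis, in each acoustics-on library, coloured by role. Differences run from high at short transcripts to low at long ones in replicate 1 (rank correlation -0.68), with Fdft1 and Fasn above the run of the other points.

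The length and GC trends, fitted over protein-coding genes with a mean of 1 FPKM or more, were then divided out of each library. After that the rank correlations of the members with length were -0.41, -0.41 and -0.29, so the correction did not take all of that relation out of the members. With it, 1 member rose and 0 fell, beside 2.92% and 3.36% of all genes tested. The median of the 18 sterol enzymes was then 0.17, with all 18 above 0, and that of the fatty acid enzymes 0.03. The sterol enzymes lay 0.27, 0.16 and 0.17 above the off group's mean in replicates 1, 2 and 3 of the on group. Acat2 kept a log2 difference of 0.52 (limma adjusted p = 0.019), Fdft1 had 0.95 and Fdps 0.65, while Mvk, Pmvk and Ebp had 0.11, 0.10 and 0.15. With the correction and without acoustics-on replicate 1, 7 members rose and 0 fell, beside 5.43% and 6.81% of all genes tested. They were Acat2, Fdps, Fdft1, Sqle, Cyp51, Nsdhl and the fatty acid gene Acly, with log2 differences from 0.27 to 0.55. In that setting 14 of the 18 sterol enzymes and 3 of the 7 fatty acid enzymes were above 0.

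**Figure D4:**
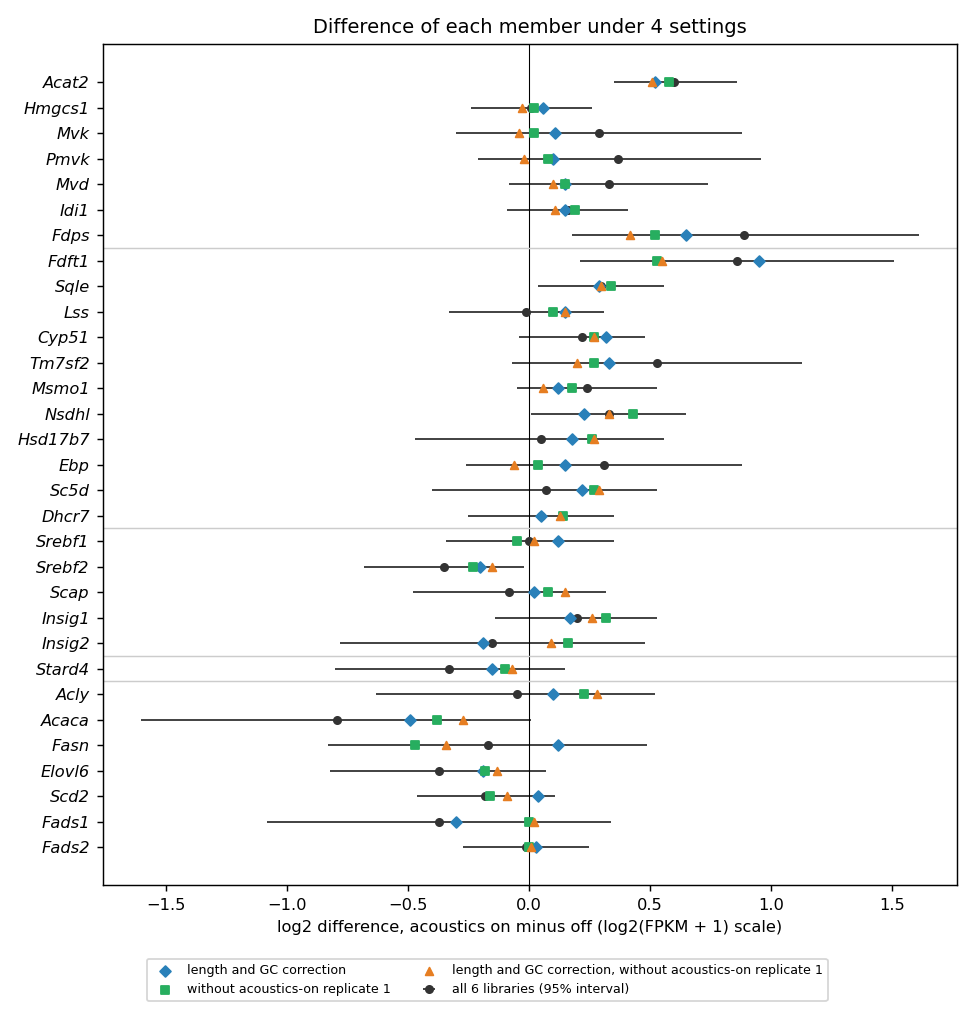
The log2 difference of each member (acoustics on minus off) with all 6 libraries and its 95% interval (black), and under 3 other settings without intervals. Acat2, Fdps, Fdft1, Sqle, Cyp51 and Nsdhl are among the members that stay to the right of 0 in all 4 settings, while Tm7sf2 moves towards 0. Mvk, Pmvk, Ebp, Acly, Scap, Lss and Insig2 are among those that change side in at least 1 setting.

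Other genes of the pathway were taken from lists picked by function. Of 13 listed genes of SREBP cleavage and of INSIG and SCAP turnover, 11 were tested. Among these 0 rose and 1 fell (median -0.13), beside 1.50% and 0.574% of all genes tested. Rnf145, a ubiquitin ligase of the endoplasmic reticulum, had 34.7, 34.6 and 31.7 FPKM in the off group and 13.6, 18.5 and 15.8 FPKM in the on group. The groups were far apart (log2 difference -1.04, SE 0.14, limma adjusted p = 0.019). It passed without acoustics-on replicate 1 or 2 (adjusted p = 0.0053 and 0.016), and not without acoustics-on replicate 3 or any acoustics-off library (0.073 to 0.13). Ubxn8, an adaptor of protein degradation at that membrane, averaged 4.73 ± 0.17 and 8.18 ± 1.64 FPKM (adjusted p = 0.095), and Ufd1, which helps extract ubiquitin-tagged membrane proteins, 21.7 ± 1.10 and 25.3 ± 0.90 FPKM (adjusted p = 0.31). Without acoustics-on replicate 1, Ubxn8 passed (adjusted p = 0.018).

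Of 20 other fatty acid genes tested, 1 rose and 0 fell (median 0.12), beside 1.50% and 0.574% of all genes tested. Acss2, the cytosolic acetyl-CoA synthetase that supplies both pathways, had 27.3, 28.8 and 26.2 FPKM in the off group and 48.5, 46.5 and 55.7 FPKM in the on group. All acoustics-on libraries were high, a ratio of means of 1.83 (log2 difference 0.85, SE 0.12, limma adjusted p = 0.021). Acss2 shares 335 of its 10163 exon bases with its antisense gene Acss2os, 395 with Gss and 197 with Ggt7, all on the opposite strand. Like Rnf145, it passed without acoustics-on replicate 1 or 2 (adjusted p = 0.0073 and 0.030) and not without the other libraries in turn (0.059 to 0.16). Lpin2, a phosphatidate phosphatase, averaged 13.2 ± 0.15 and 7.45 ± 2.37 FPKM (adjusted p = 0.14), and passed without acoustics-on replicate 1 (log2 difference -0.54, adjusted p = 0.017). Pcyt2, an enzyme of phosphatidylethanolamine synthesis, averaged 50.4 ± 0.54 and 67.8 ± 7.95 FPKM (adjusted p = 0.16).

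Of 17 other sterol and isoprenoid genes tested, 0 rose and 0 fell by limma (median -0.07), beside 1.50% and 0.574% of all genes tested. At an unadjusted p under 0.05, 2 were higher and 1 was lower, beside the 10.5% and 9.16% of all genes tested given above. Soat1, which esterifies cholesterol for storage, had 206.1, 197.9 and 201.2 FPKM in the off group and 86.2, 157.8 and 145.3 FPKM in the on group. Every acoustics-on library was below (log2 difference -0.68, adjusted p = 0.20), and it passed without acoustics-on replicate 1 (log2 difference -0.41, adjusted p = 0.035). Tmem97, a sterol-regulated membrane protein, averaged 35.2 ± 0.43 and 47.5 ± 9.34 FPKM (log2 difference 0.41, adjusted p = 0.22, and 0.26 without acoustics-on replicate 1). Pdss1, which starts ubiquinone side-chain synthesis, averaged 1.56 ± 0.17 and 2.24 ± 0.35 FPKM (adjusted p = 0.24). In the authors' deposited table, 5.08% of genes with an adjusted p were higher and 2.49% lower at the same threshold, and the members past it were Acat2, Fdps and Fdft1. Of the other pathway genes, Acss2 and Ubxn8 were higher past it (adjusted p = 5.4e-07 and 0.0062 there). Rnf145 and Lpin2 were lower past it (adjusted p = 1.6e-07 and 0.034 there).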

How the data were processed

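RNA-seq was measured in 3 acoustics-off and 3 acoustics-on libraries, grouped by their labels. The authors deposited FPKM per gene and library. They also deposited their own comparison, with a mean normalised count per gene (a signal per gene, in counts divided by size factors), log2 fold changes, a Wald score, and raw and adjusted p-values. The submitters' processing notes name DESeq2 1.38.2, Salmon 1.4.0, STAR 2.7.11, Trim Galore 0.6.8 and GRCm38, with no settings. A rRNA depletion kit is named in the labels' protocols, while their molecule field says polyA RNA.

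The members and lists were chosen with earlier results of these data known. No counts were used, so limma 3.58.1 in R 4.3.3 was run on log2(FPKM + 1) for all genes with at least 0.5 FPKM in at least 3 libraries, with a trended robust prior and Benjamini-Hochberg adjustment at 0.05, and without a replicate term. The test was also run on simulated data with the same spread in both groups. That run does not check it under the wider spread of the on group. Every member is named, and those that passed or whose groups did not overlap have each library's value. Of the other lists, genes that passed and the 3 with the smallest p are named. Positions, lengths and exon overlaps are from GENCODE M21 (GRCm38). The length and GC correction fitted a loess trend (span 0.5) per library, relative to the mean of all libraries, over protein-coding genes whose mean was 1 FPKM or more. Alternatives were other pseudocounts, filters, scalings and priors, library weights, a replicate term and each library left out, with the filter set on those that remained.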

Additional observations from a re-analysis of the deposited data

How the results depend on the processing

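The count of members that rose was 1 in the main analysis and 1 with other pseudocounts, a filter at 2 FPKM, a prior that was not robust, upper quartile scaling, quantile normalization, or the length and GC correction. It was 0 with no filter, 6 with library weights (2 lower there, beside 9.41% and 6.72% of all genes tested) and 7 with the correction and without acoustics-on replicate 1. With single libraries left out it ranged from 0 to 5, the 5 without acoustics-on replicate 1 and 0 without any other. Other pathway genes that rose ranged from 0 to 2 and those that fell from 0 to 3 over these. They were 2 and 2 with the correction, 2 and 4 with it and without acoustics-on replicate 1, 5 and 3 with weights, and 2 and 1 with quantile normalization. The members' median log2 difference of 0.05 was 0.15 with weights and -0.02 to 0.14 with a library left out. Same-numbered libraries did not deviate together (correlations -0.07, -0.02 and 0.00 over genes), and differently numbered ones had correlations from -0.12 to 0.12. With 3 libraries per group this cannot settle whether the numbers pair them. With the replicate number as a block, 0 members and 0 other pathway genes rose and Rnf145 alone fell. The cause of these moves was not tested, though a block, or fewer libraries, leaves fewer residual degrees of freedom.

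Several members changed sign, among them Pmvk (0.37 in the main analysis), Fads1 (-0.37), Ebp (0.31) and Mvk (0.29). Hmgcs1 was at -0.03 with upper quartile scaling, quantile normalization, and the correction without acoustics-on replicate 1. Lss was at 0.03 with quantile normalization, 0.15 with the correction (with or without that library) and 0.06 with weights. With the correction Scap was at 0.02, Acly 0.10, Fasn 0.12, Scd2 0.04 and Fads2 0.03. With weights Scap was at 0.07, Insig2 0.08 and Acly 0.14. With the correction and without that library Mvk was at -0.04, Pmvk -0.02, Ebp -0.06, Scap 0.15, Insig2 0.09, Acly 0.28, Fads1 0.02 and Fads2 0.01. With single libraries left out the ranges were -0.08 to 0.10 for Lss, -0.05 to 0.03 for Fads2, -0.03 to 0.03 for Hmgcs1, -0.14 to 0.26 for Hsd17b7, -0.16 to 0.08 for Scap, -0.34 to 0.16 for Insig2, -0.24 to 0.23 for Acly, -0.47 to 0.07 for Fasn, -0.10 to 0.27 for Sc5d and -0.02 to 0.14 for Dhcr7. Library weights were estimated gene by gene, because the default estimate stopped before it converged. The depth of each library is unknown from FPKM, and the lowest mean count of a member was 465.5.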
